A study of Mus musculus with 4 samples.

Results

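The genes described here are 6 members of the opioid system: Penk and Pdyn, which encode the precursors of enkephalin and dynorphin, and Oprm1, Oprk1, Oprd1 and Oprl1, which encode the mu, kappa, delta and nociceptin receptors. They were chosen by name among the 20136 genes listed in the count tables, not by their measured values. Pnoc, the gene of the nociceptin precursor, serves only as a reference. Tissue punches were taken from male wildtype C57BL/6J mice and held the BNST, the nucleus of the extended amygdala named for the stria terminalis. No agent was given and no second genotype was compared. There were 4 Drop-seq libraries, each made from 6 pooled mice, so that 24 mice formed a single group and n = 4 libraries. Drop-seq traps single cells with barcoded beads in droplets and counts molecules by unique molecular identifiers (UMIs). The age of the mice was not used here.

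Opioid peptides are cut from large precursors by convertases that cleave at pairs of basic residues, and 1 precursor can release several peptides that share the same core. Enkephalins act mainly on the delta and mu receptors, dynorphins on the kappa receptor, and nociceptin on its own receptor, which binds the classical opioid peptides poorly. All 4 receptors couple to inhibitory G proteins, which lower cyclic AMP, open inwardly rectifying potassium channels and reduce calcium entry. In the striatum, which borders the BNST, enkephalin marks spiny neurons with the D2 dopamine receptor and dynorphin those with the D1 receptor.

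The shared core is visible in the coding sequence. The short stretches below are shown because they are what makes both precursors opioid precursors and sets Pnoc apart. Each was read from the longest open frame of GENCODE vM21 transcripts (GRCm38). Capitals mark the in-frame codons of the peptide core, searched on the coding strand as TANGGNGGNTTN for the opioid core and TTNGGNGGNTTN for the nociceptin core. The lower-case letters are the 6 bases before the core and the 9 that follow it.
Penk copy 1: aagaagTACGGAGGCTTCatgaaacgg
Penk copy 3: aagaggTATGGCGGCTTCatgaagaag
Penk copy 6: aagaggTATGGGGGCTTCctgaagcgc
Pdyn copy 1: aaacgcTATGGCGGCTTTttgcgcaaa
Pdyn copy 2: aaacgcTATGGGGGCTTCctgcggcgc
Pdyn copy 3: aagcgcTATGGTGGTTTCctgcggcgt
Pnoc copy 1: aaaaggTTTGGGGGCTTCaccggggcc
The Penk frame of 807 bases held 7 copies of the opioid core, and the Pdyn frame of 747 bases held 3. The Pnoc frame of 639 bases held 0 of these and 1 nociceptin core, whose first codon differs. In Penk copy 6 the codon after the core was CTG, where the other copies had ATG. Among 21810 genes with a reading frame, 88 (0.403%) matched the opioid search pattern at least once and 4 matched it 3 times or more. Its last codon, TTN, can code phenylalanine or leucine, so these counts can include matches that are not the peptide core. In the copies of Penk, Pdyn and Pnoc that codon was TTC or TTT. On GRCm38, Penk lies on chromosome 4 from 4133531 to 4138819 on the minus strand and Pdyn on chromosome 2 from 129686565 to 129699844 on the minus strand. Oprm1 lies on chromosome 10 from 6758506 to 7038198 (plus), Oprk1 on chromosome 1 from 5588466 to 5606131 (plus), Oprd1 on chromosome 4 from 132110726 to 132144486 (minus) and Oprl1 on chromosome 2 from 181715016 to 181720985 (plus). Penk overlaps A830012C17Rik, and Oprm1 overlaps Ipcef1, both on the opposite strand and both listed in the tables. The strand used in counting was not given in the sources used here, so reads of these pairs could not be told apart.

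Of 10200 barcodes, 4181 were kept (837 to 1281 per library, with a median of 1483.5 to 2504 UMIs), and no kept barcode sequence occurred in more than 1 library. Cells were sorted into classes by the UMIs of marker genes, a procedure called gating here. It gave 2525 neurons and 1575 non-neuronal cells, of which 949 were gated as oligodendrocytes, 129 as oligodendrocyte precursors and 404 as astrocytes. By the way the gates are drawn, neuron markers made up a larger share of UMIs in neurons (1.87%) than in the oligodendrocyte gate (0.0424%). Neurons were deeper, with a median of 3183 UMIs against 1137. Among the neurons, 2303 were GABAergic, 92 glutamatergic and 130 neither. Within the GABAergic neurons, 14 subtype gates took 1496 cells, 614 of them in more than 1 gate, so gates are overlapping views of the same cells. Levels below are in CPM, a gene's UMIs scaled to the total UMIs of the class, with the SD over libraries. Where a punch ended cannot be read from the libraries, so neurons of the BNST and of neighbouring tissue cannot be told apart. The library was kept as a block in the fit, which takes out differences in level between the 4 pools of mice. The edgeR p-values thus judge differences between cell classes within libraries. They are no plain measure of the spread between pools, because the variance of each gene is drawn towards that of other genes. A gene can therefore be called although its libraries disagree, as Penk was in the Drd1 gate below.

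All 6 genes were higher in neurons than in non-neuronal cells, Oprm1 and Oprd1 on few UMIs. Of all genes tested in that comparison, 66.2% were called in one direction or the other, so the count of members is no rarity there. Penk, the enkephalin precursor gene, stood at 577, 747, 577 and 966 CPM in the neurons of libraries 1 to 4 and at 5.24, 15.1, 18.8 and 16.5 CPM in non-neuronal cells. The groups did not overlap, and the log2 fold change was 5.50 (SE 0.17, edgeR adjusted p = 8.8e-225). Pdyn, the dynorphin precursor gene, stood at 37.2, 48.6, 45.1 and 50.9 CPM in neurons, while non-neuronal cells gave 2 UMIs in all, both in library 4 (log2 fold change 5.30, SE 0.49, edgeR adjusted p = 3.19e-26). Neuronal Pdyn thus varied by less than its distance from non-neuronal cells in every library.

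The receptor genes followed the same split. Oprk1, the kappa receptor gene, had 351 UMIs in neurons (35.4 ± 7.89 CPM, SD, n = 4) and 2 in non-neuronal cells (log2 fold change 5.03, SE 0.53, edgeR adjusted p = 9.14e-21). Oprl1, the nociceptin receptor gene, had 589 UMIs in neurons (62.8 ± 10.8 CPM) and 13 in non-neuronal cells (5.90 ± 4.83 CPM, log2 fold change 3.17, SE 0.30, edgeR adjusted p = 8.35e-26). Both were higher in neurons in 4 of 4 libraries without overlap. Oprm1, the mu receptor gene, was scarce, with 55 UMIs in neurons (6.19 ± 2.35 CPM) and 2 elsewhere (log2 fold change 2.38, SE 0.88, edgeR adjusted p = 0.0124). Oprd1, the delta receptor gene, had 21 UMIs in neurons, 2.29 ± 0.839 CPM, and 0 in 1575 non-neuronal cells. A count of 0 there allows up to 1.34 CPM, so neuronal Oprd1 was at least 1.61-fold higher against a floor of 3 counts over the group (edgeR adjusted p = 0.0322). The Oprm1 and Oprd1 calls did not hold in DESeq2 (adjusted p = 0.0704 and 0.233). Oprm1 was also lost without library 3 (log2 fold change 2.01) or library 4 (1.98), with an edgeR or DESeq2 adjusted p of 0.0115 to 0.0724 over its alternatives, and Oprd1 with no count minimum (edgeR adjusted p = 0.0813, within 0.0261 to 0.233).

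**Figure D1:**
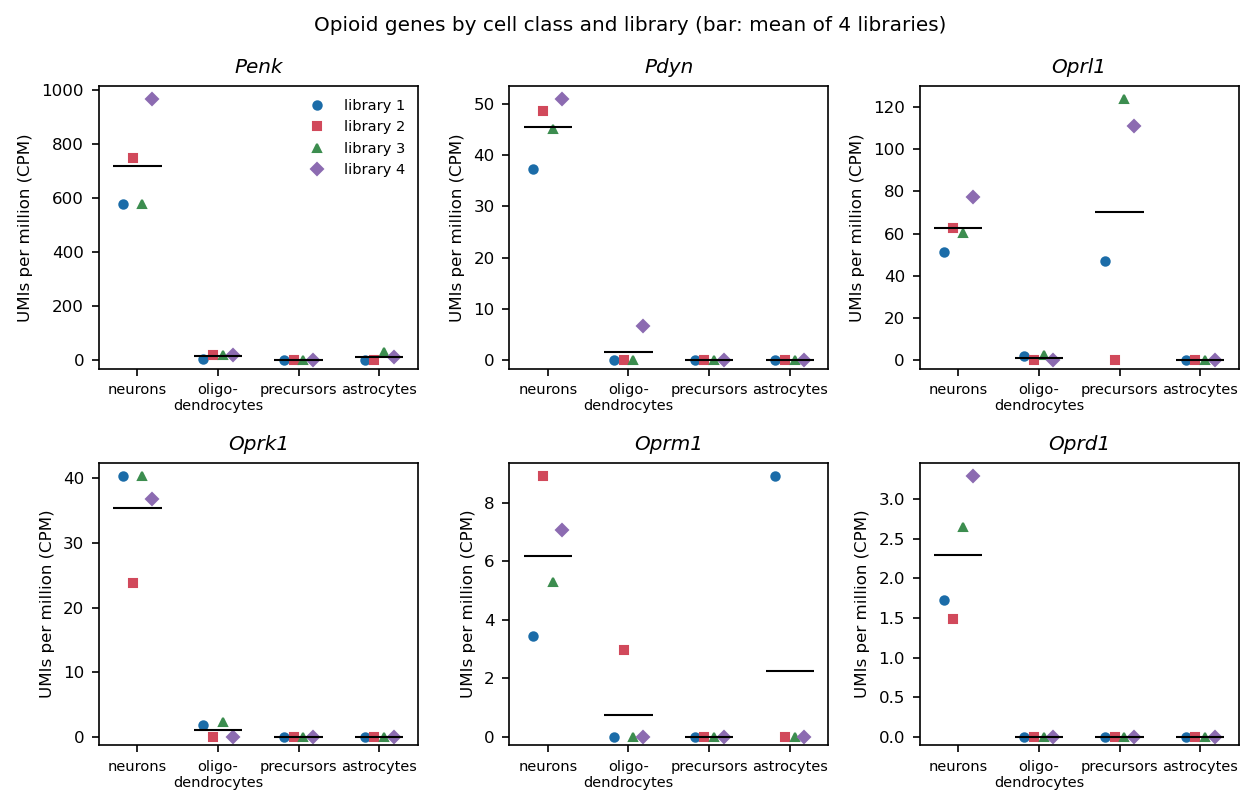
CPM of each gene in the neuron, oligodendrocyte, oligodendrocyte precursor and astrocyte gates; each point is a library and each bar the mean of 4 libraries, with its own linear scale per gene. Neurons stand above the oligodendrocyte and astrocyte means for all 6 genes, while Oprl1 in precursors (70.3 CPM on average) lies above all neurons in libraries 3 and 4 and at 0 in library 2.

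Free RNA can add UMIs to any cell in droplet data, and its part in the values below was not tested. A Penk UMI was found in 1.49% of non-neuronal cells and in 30.3% of neurons. At a fixed depth of 1000 UMIs per cell the shares were 0.918% and 22.7%. In the oligodendrocyte gate (median 1384 UMIs) 17 of 949 cells held 23 Penk UMIs. In the 129 precursor cells, at a median of 996 UMIs, 0 Penk UMIs were found, which allows up to 20.3 CPM.

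Oprl1 was the only member of the 6 with any UMI in oligodendrocyte precursors. These glial progenitor cells held 11 of the 13 non-neuronal Oprl1 UMIs, spread over 9 of 129 cells, against 2 in 949 oligodendrocytes and 0 in 404 astrocytes. The precursor gate stood at 46.8, 0, 124 and 111 CPM in libraries 1 to 4, against 51.3, 62.5, 60.3 and 77.3 CPM in neurons. It was thus at 0 in library 2, just below neurons in library 1 and above them in libraries 3 and 4. Neuron markers made up 0.212% of UMIs in the precursor gate, above the 0.0424% of oligodendrocytes and the 0.0775% of astrocytes. How far UMIs from neurons entered the Oprl1 value was not tested. With 13 UMIs the gene fell under the minimum of 20 counts for the test; with no such minimum the log2 fold change of precursors over other non-neuronal cells was 4.81 (SE 1.20, edgeR adjusted p = 8.62e-04). Penk was the only member tested among the non-neuronal classes, and edgeR called it in 0 of 3 of those comparisons (1 at an unadjusted p under 0.05, 0 by DESeq2), where 43.2% (oligodendrocytes), 22.7% (precursors) and 36.3% (astrocytes) of genes were called.

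Between the transmitter classes the peptide precursor genes differed. Of 5 members tested in the 3 libraries with at least 10 glutamatergic cells, 2 were called, where 2.01% of all genes were. Pdyn stood at 39.9, 51.2 and 52.3 CPM in GABAergic neurons of libraries 1, 2 and 4 and at 11.7, 0 and 0 CPM in glutamatergic ones (4 UMIs in all), a log2 fold change of 2.46 (SE 0.59, edgeR adjusted p = 0.0029). The values did not overlap, but the call was lost without library 2 (log2 fold change 2.12, adjusted p = 0.0546) and in DESeq2, and p ran from 0.0023 to 0.546 over the alternatives. Penk stood at 585, 756 and 997 CPM against 497, 591 and 112 CPM, higher in 3 of 3 libraries but with overlapping ranges (log2 fold change 0.82, SE 0.16, edgeR adjusted p = 2.85e-05). Library 4 carried most of that difference: without it the fold change was 0.34 with an adjusted p of 0.903, and over the alternatives p ran from 1.4e-07 to 1. Oprl1 was 63.0 ± 12.9 CPM in GABAergic and 83.9 ± 37.7 CPM in glutamatergic neurons and was not called (edgeR adjusted p = 0.906). Oprm1 and Oprd1 had 0 UMIs in the 92 glutamatergic neurons, which allows up to 5.67 CPM beside GABAergic levels of 6.73 ± 2.80 and 2.32 ± 1.02 CPM.

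Most Penk UMIs came from few GABAergic neurons. A Penk UMI was seen in 27.1% to 32.1% of GABAergic neurons per library, and the richest cell held 106. Cells with 10 or more Penk UMIs made up 9.71%, 9.33%, 7.73% and 9.41% of GABAergic neurons in libraries 1 to 4. They held 75.1%, 75.2%, 74.5% and 75.0% of the Penk UMIs, a share that varied little between pools. Such concentration was not particular to Penk. On average the richest 10% of cells held 77.9% of Penk, 80.4% of Pnoc and 62.2% of Oprl1 UMIs. For Pdyn they held 100%, as only 9.34% of cells had a Pdyn UMI. Of these 212 cells, 74 (34.9%) lay in the Ppp1r1b and Crym gate and 44 (20.8%) in the Drd2 and Adora2a gate. The Six3 and Ifi27l2a gate held 37 (17.5%), and 41 (19.3%) lay in no gate. Such cells were 30.5%, 42.7%, 18.1% and 5.08% of these sets, against 9.21% of all GABAergic neurons. Gates share cells, so the shares do not add up.

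**Figure D2:**
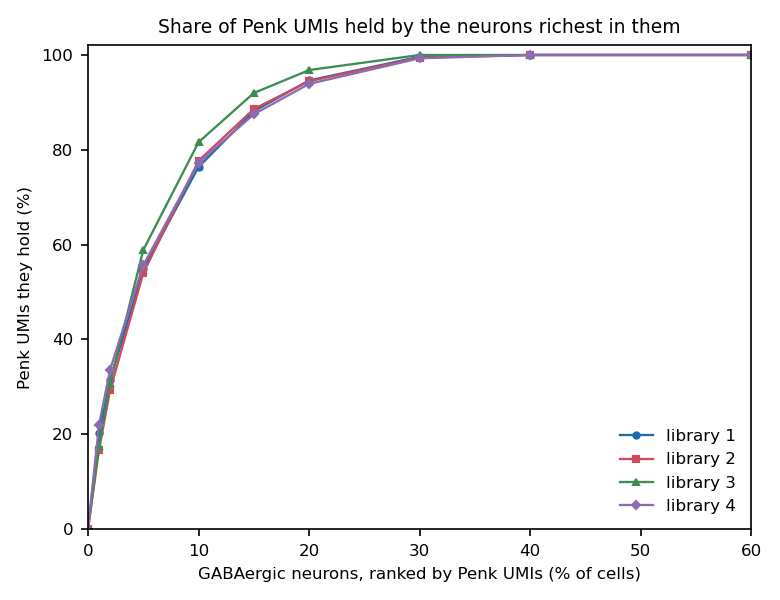
Cumulative share of Penk UMIs (vertical axis, %) held by GABAergic neurons ranked from most to fewest Penk UMIs (horizontal axis, % of cells, shown to 60), with 1 line per library. The richest 5% of cells held 54.0% to 58.8% of the UMIs, and the 4 lines lie close together.

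Each subtype gate was then compared with the other gated GABAergic neurons, and 5 of the 6 members had enough counts for the test. The share of all tested genes called in the same comparison was 18.1% for Ppp1r1b and Crym, 8.94% for Lhx8 and Rorb, 5.73% for Crh and Wif1, 5.41% for Prkcd, 5.19% for Cck and Greb1, 3.91% for Slc17a8 and 3.35% for Tac2 and Ebf1. It was 3.04% for Zic1 and Zic4, 2.43% for Avp and Gal, 2.40% for Drd1, 1.76% for Sst and Npy, 1.53% for Six3 and Ifi27l2a, 1.43% for Drd2 and Adora2a and 1.35% for Tshz1 and Foxp2. Against these shares, 4 of 5 members were called in the Ppp1r1b and Crym gate, 3 of 5 in the Cck and the Tac2 gates, and 0 of 5 in the Tshz1 and Foxp2 gate (0 also at an unadjusted p under 0.05 and by DESeq2). In a single test over cells that lay in exactly 1 gate, Penk, Pdyn and Oprk1 varied among the gates (edgeR adjusted p = 2.52e-269, 5.5e-06 and 1.24e-04) and Oprl1 did not pass (0.208), where 10.4% of genes did. Without library 1, Pdyn and Oprk1 no longer passed (edgeR adjusted p = 0.165 and 0.214), and of the members tested only Penk did so in DESeq2.

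Penk was highest in 2 gates. In the Drd2 and Adora2a gate (103 cells, named for the genes of a dopamine and an adenosine receptor) it stood at 1842, 2554, 2976 and 4312 CPM, against 547, 618, 408 and 808 CPM in the other gated neurons. In the Ppp1r1b and Crym gate (243 cells; Ppp1r1b encodes DARPP-32, a signalling protein abundant in spiny neurons) it stood at 1690, 2382, 2601 and 3499 CPM, against 475, 528, 287 and 531 CPM. Neither gate overlapped its reference, while the 2 gates overlapped each other. The log2 fold changes were 2.15 (SE 0.10, edgeR adjusted p = 1.85e-101) and 2.41 (SE 0.07, edgeR adjusted p = 6.03e-227), and both calls held in DESeq2 and with robust dispersions. The Six3 and Ifi27l2a gate came next, at 853, 1351, 1068 and 1557 CPM against 593, 655, 492 and 930 CPM, higher in 4 of 4 libraries though the ranges overlapped (log2 fold change 0.80, SE 0.08, edgeR adjusted p = 1.06e-22). The call was lost without the replicate block (adjusted p = 0.0797, the highest of its 16 alternatives, the lowest being 2.44e-24). The Prkcd gate (50 cells) was uneven, at 1798, 1548 and 264 CPM in libraries 1, 2 and 4, and was not called (edgeR adjusted p = 0.153).

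Penk was lowest where Cck, Lhx8, Zic1 or Avp and Gal were detected. The Cck and Greb1 gate stood at 90.0, 74.7, 131 and 155 CPM, against 726, 794, 724 and 1122 CPM in the other gated neurons (log2 fold change -2.89, SE 0.13, edgeR adjusted p = 3.32e-103). The Lhx8 and Rorb gate, named for 2 transcription factor genes, stood at 81.9, 108, 40.1 and 215 CPM (log2 fold change -2.90, SE 0.14, edgeR adjusted p = 5.83e-94). Both lay below their references in 4 of 4 libraries without overlap. The Cck call held under all 16 alternatives and the Lhx8 call under the 15 that could be run. Cells in exactly 1 gate were too few to be compared for the Lhx8 gate. The Zic1 and Zic4 gate (log2 fold change -2.72) and the Avp and Gal gate (-2.36) were also below in 4 of 4 libraries, but each held 1 library far above its others. Library 2 held 423 CPM in the Zic1 gate, where the others held 8.0 to 116, and library 1 held 450 CPM in the Avp and Gal gate, where the others held 0 to 41.4. With robust dispersions neither call held (adjusted p = 0.39 and 0.61, the highest over their alternatives, which went down to 6.02e-101 and 4.31e-64). The Sst and Npy gate was lower by a smaller step (551 ± 87.3 against 782 ± 228 CPM, log2 fold change -0.47, SE 0.09, edgeR adjusted p = 1.6e-05), and that call was lost in DESeq2 (0.0615) and without the replicate block (0.791, the highest over its alternatives, the lowest being 8.62e-24).

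Penk in the Drd1, Tac2 and Crh gates depended on the library. Their log2 fold changes were -0.33, -0.31 and -0.96, with edgeR adjusted p = 0.0491, 0.0211 and 1.09e-27. The Drd1 gate stood at 936, 889, 316 and 203 CPM, against 578, 717, 631 and 1112 CPM, higher in 2 libraries and lower in 2. Without library 4 its sign turned (0.14) and without library 3 its call was lost (-0.15). The Tac2 gate lost its call without library 3 (-0.07) or 4 (-0.06) and turned its sign with cells in exactly 1 gate (0.53). The Crh gate was lower in 3 of 4 libraries. None of these 3 calls held with robust dispersions. In the order of mean levels over the 14 gates, the ranges of all neighbours overlapped except between the Ppp1r1b and the Six3 gates.

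**Figure D3:**
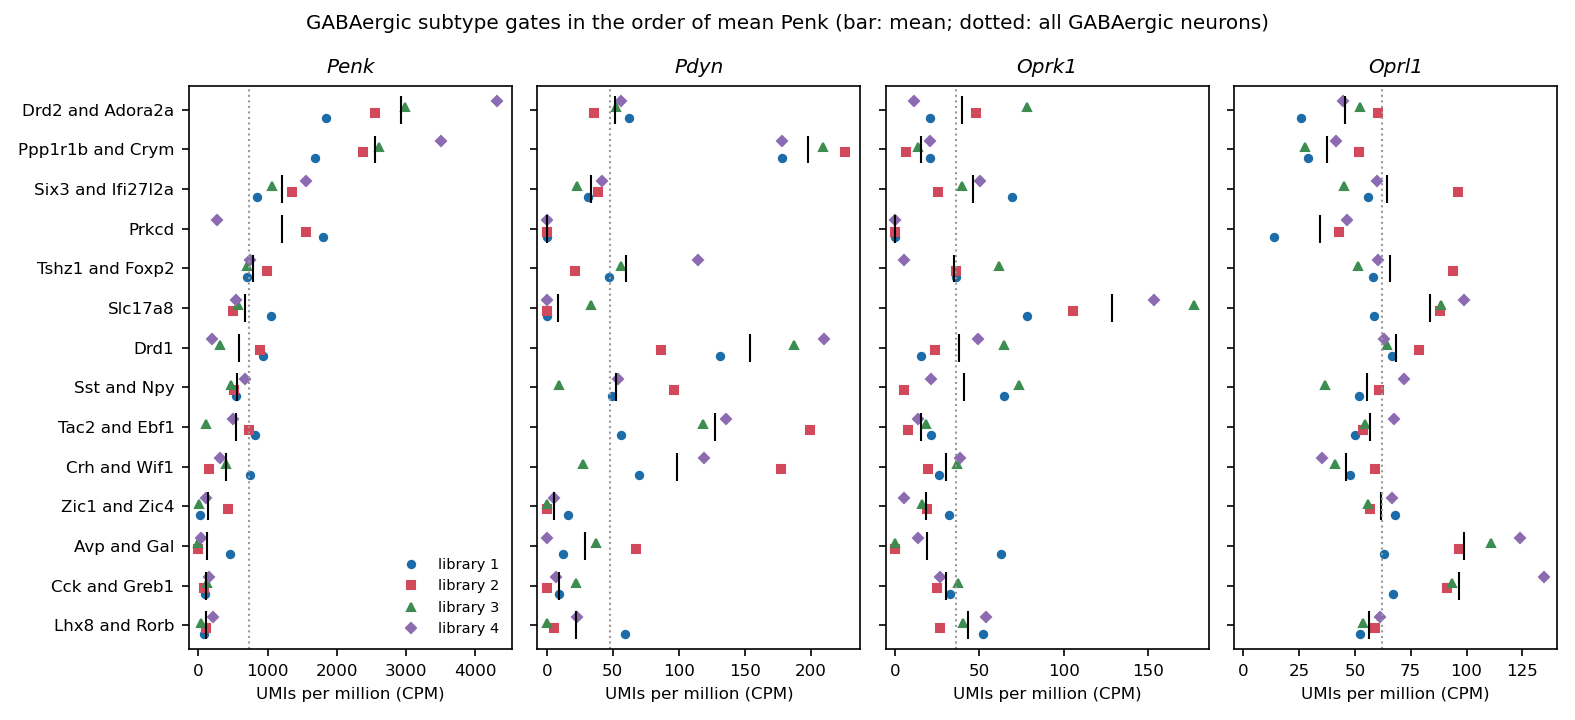
CPM of Penk, Pdyn, Oprk1 and Oprl1 in the 14 GABAergic subtype gates, ordered by mean Penk; points are libraries with at least 10 cells, bars are means over them, and dotted lines mark the mean of all GABAergic neurons. Penk is high in the first 2 gates in every library, Pdyn in the Ppp1r1b and Drd1 gates, and Oprk1 in the Slc17a8 gate, while Oprl1 varies over a narrower range.

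Pdyn had its own order of gates. It was highest in the Ppp1r1b and Crym gate, at 178, 226, 209 and 178 CPM, against 25.1, 41.5, 24.5 and 36.2 CPM in the other gated neurons (log2 fold change 2.61, SE 0.18, edgeR adjusted p = 6.13e-44). Next was the Drd1 gate (186 cells), at 131, 86.6, 187 and 210 CPM against 29.4, 59.4, 23.1 and 43.4 CPM (log2 fold change 2.03, SE 0.20, edgeR adjusted p = 1.11e-21). No library of either gate fell into the range of its reference. The Ppp1r1b and Crym gate held 10.3% ± 1.8 of the GABAergic neurons (SD, n = 4 libraries), and with them 41.8% ± 4.7 of their Pdyn UMIs and 35.5% ± 9.1 of their Penk UMIs.

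Pdyn was also higher in 2 further gates, those of Tac2 and Ebf1 and of Crh and Wif1; Tac2 encodes the precursor of neurokinin B and Crh corticotropin-releasing hormone. The Tac2 gate stood at 56.2, 199, 119 and 135 CPM against 41.7, 30.5, 40.4 and 46.1 CPM, higher in 4 of 4 libraries (log2 fold change 1.49, SE 0.19, edgeR adjusted p = 3.53e-12). That call was lost when cells were thinned to 1000 UMIs (1.28, adjusted p = 0.196) and with cells in exactly 1 gate (0.45, adjusted p = 0.904, the highest over 16 alternatives in edgeR or DESeq2, the lowest being 5.16e-15). The Crh gate stood at 69.6, 178, 27.5 and 119 CPM against 39.9, 36.4, 53.0 and 43.6 CPM (log2 fold change 1.16, SE 0.19, edgeR adjusted p = 2.09e-07). It was lower than its reference in library 3, and the call was lost without library 2 (log2 fold change 0.75, adjusted p = 0.0719, within 2.12e-10 to 0.882 over all 16 alternatives).

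The 2 gates shared 76 cells, and a split made after these values were seen showed where the Pdyn UMIs lay. Pooled over libraries, cells in both gates held 222 CPM (95% Poisson interval 176 to 275). Cells in the Tac2 gate alone held 56.7 CPM (42.1 to 74.8), and those in the Crh gate alone 44.8 CPM (32.1 to 60.8). Libraries 1 to 4 gave 122, 405, 137 and 230 CPM in the shared cells, each above both other sets of its library. These intervals cover counting error only, and no test was made. With cells in exactly 1 gate, the calls of Pdyn in the Tac2, Crh and Ppp1r1b gates were all lost (log2 fold changes 0.45, 0.43 and 0.69).

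At the low end, Pdyn had 0 UMIs in the 50 cells of the Prkcd gate; Prkcd encodes a protein kinase C that marks a class of neurons in the extended amygdala. Against the floor of 3 counts over the gate, Pdyn was at least 4.79-fold lower there than in the other gated neurons (edgeR adjusted p = 1.47e-04, lower in 3 of 3 libraries, and up to 0.372 when thinned to 1000 UMIs). The Cck gate (9.60 ± 9.40 CPM, log2 fold change -2.35, SE 0.37, edgeR adjusted p = 1.63e-08), the Zic1 gate (5.38 ± 7.52 CPM, -3.12, SE 0.46, 5.84e-09) and the Slc17a8 gate (8.30 ± 16.6 CPM, -3.02, SE 0.60, 4.21e-05) were lower in 4 of 4 libraries. They rested on 11, 5 and 3 Pdyn UMIs. The Slc17a8 call was lost in DESeq2 and, like that of Zic1, when cells were thinned to 1000 UMIs (adjusted p up to 0.117 and 0.378 over the alternatives).

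Penk and Pdyn parted along the dopamine receptors. With the cells common to both gates left out, the Drd2 and Adora2a gate held Penk at 2074, 2491, 3123 and 4602 CPM, and the Drd1 gate at 979, 818, 323 and 211 CPM. For Pdyn the order was the opposite, at 47.2, 24.8, 54.8 and 47.7 CPM in the Drd2 gate and 129, 80.2, 191 and 211 CPM in the Drd1 gate. Neither gene overlapped between the gates in any library. The log2 fold changes of the Drd2 over the Drd1 gate were 2.32 for Penk (SE 0.19, edgeR adjusted p = 1.37e-17) and -1.75 for Pdyn (SE 0.34, edgeR adjusted p = 8.18e-04). These were 2 of the 4 members tested, where 0.504% of all genes were called; Oprk1 and Oprl1 did not pass (edgeR adjusted p = 0.997 and 0.856). DESeq2 called neither precursor gene (adjusted p = 0.171 and 0.814), and with robust dispersions Penk was lost (0.744) while Pdyn was kept; the lowest p over the 13 alternatives were 2.46e-74 and 1.58e-04.

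The split was sharpest inside the Ppp1r1b and Crym gate, again in a description made after the values were seen. Most cells of that gate, 139 of 243, lay in neither dopamine receptor gate, with pooled Penk at 2098 CPM and Pdyn at 144 CPM. The split thus describes the smaller part of the Ppp1r1b and Crym gate. Of its 42 cells with Drd2 or Adora2a gate UMIs and no Drd1, 38 held Penk and 2 held Pdyn. Of its 57 cells with Drd1 and no Drd2 gate UMIs, 9 held Penk and 40 held Pdyn. The median depths were alike, 3262.5 and 3541 UMIs. Pooled Penk was 6637 CPM (95% Poisson interval 6238 to 7056) in the former and 514 CPM (426 to 615) in the latter, and pooled Pdyn was 25.9 CPM (7.04 to 66.2) and 397 CPM (320 to 487). The Drd1 set gave Penk at 982 CPM in library 1 and at 99.6 to 283 CPM in the other 3 libraries, and its pooled Penk without library 1 was 159 CPM, so that the level of 514 CPM rests on that library. The same set gave Pdyn at 351, 255, 498 and 519 CPM in libraries 1 to 4. In the other direction, the Drd2 set gave Penk at 5207 and 9683 CPM in libraries 1 and 4, those with at least 10 such cells, and its pooled Pdyn, 4 UMIs in all, ran from 15.4 to 39.5 CPM with a library left out.

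Outside the Ppp1r1b and Crym gate the same split of cells gave other values. The 53 Drd2 cells there held Penk at 554 CPM (466 to 654) and the 121 Drd1 cells at 774 CPM (707 to 846). Their Pdyn stood at 55.4 CPM (30.3 to 93.0) and 54.5 CPM (37.7 to 76.2). The intervals for Pdyn overlapped. The libraries differed in the order for Penk: the Drd2 set stood at 629, 393 and 597 CPM in libraries 1, 2 and 4, where it had at least 10 cells, and the Drd1 set at 978, 1145 and 179 CPM in the same libraries, higher in 2 and lower in library 4.

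**Figure D4:**
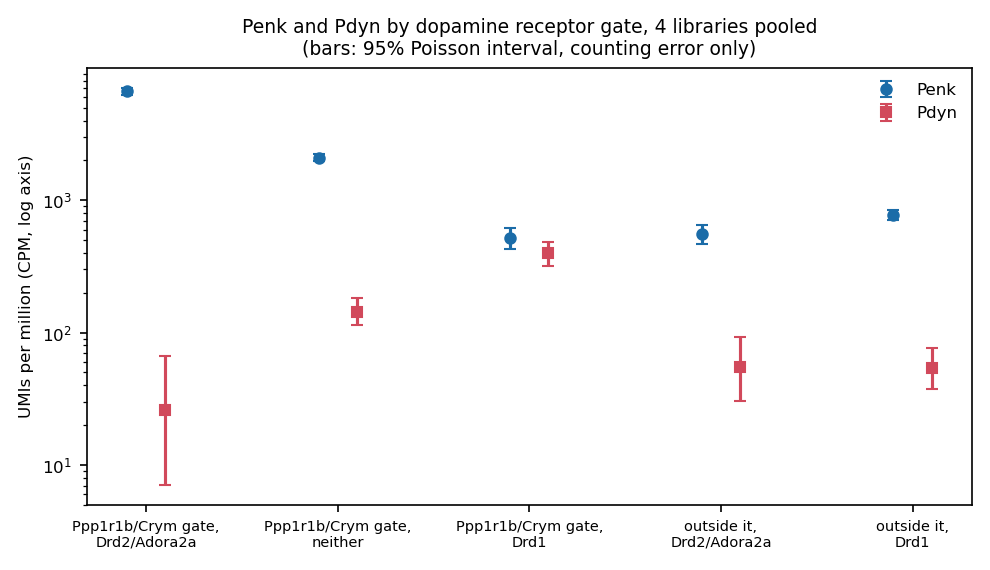
Penk (circles) and Pdyn (squares) in CPM on a log axis, by dopamine receptor gate inside and outside the Ppp1r1b and Crym gate, pooled over 4 libraries; bars are 95% Poisson intervals for counting error only. Inside the gate Penk is 6637 CPM in the Drd2 set and 514 CPM in the Drd1 set (159 CPM without library 1) and Pdyn 25.9 and 397 CPM, while outside it Penk is 554 and 774 CPM and Pdyn 55.4 and 54.5 CPM. The 139 cells inside the gate with neither receptor gate hold Penk at 2098 CPM and Pdyn at 144 CPM.

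Among the receptor genes, Oprk1 stood out in 1 gate. In the Slc17a8 gate (86 cells; Slc17a8 encodes the vesicular glutamate transporter VGLUT3) it stood at 78.1, 106, 177 and 154 CPM, against 17.0 to 39.5 CPM in the other gated neurons. Every library of the gate lay above every library of the reference, and above those of all the other gates except library 3 of the Drd2 gate (78.3 CPM). The log2 fold change was 2.03 (SE 0.30, edgeR adjusted p = 2.34e-09), and it ranged from 1.88 to 2.55 over 15 alternatives. Thinning to 1000 UMIs per cell kept the size (2.16) but not the call (adjusted p = 0.0621, the highest of them, the lowest being 5.94e-11). The gate held 3.92% ± 1.30 of the GABAergic neurons and 19.3% ± 10.3 of their Oprk1 UMIs (SD, n = 4). Cells in that gate alone held 164 CPM (95% Poisson interval 108 to 239) and those also in another gate 98.7 CPM (62.6 to 148), intervals that overlap. The gate's Pdyn, the precursor of the kappa receptor's own peptides, was among the lowest, as given above.

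Oprk1 was low in 3 gates. The Prkcd gate had 0 Oprk1 UMIs, at least 3.32-fold lower than the reference against the floor of 3 counts (edgeR adjusted p = 0.0128, 3 of 3 libraries). With only 50 cells, that call was lost without any 1 of its 3 libraries (0.0806 to 0.176, within 0.01 to 0.622 over the alternatives). The Ppp1r1b gate (15.5 ± 6.86 against 37.9 ± 8.93 CPM, log2 fold change -1.20, SE 0.36, edgeR adjusted p = 0.0085) and the Tac2 gate (15.2 ± 5.93 against 38.8 ± 8.47 CPM, -1.27, SE 0.33, 0.00578) were lower in 4 of 4 libraries without overlap. These 2 gates were among those with the highest Pdyn. Over the 14 gates Pearson's r of Oprk1 and Pdyn was 0.47 (no test), but it leans on the Prkcd gate, with 0 UMIs of both. It thus cannot tell whether the 2 genes run opposite over the other gates. The Slc17a8 gate, highest for Oprk1, held Pdyn at 8.30 ± 16.6 CPM. The Drd1 gate, second for Pdyn, held Oprk1 at 38.1 ± 22.6 CPM. DESeq2 kept none of the 3 calls of low Oprk1. The last 2 were also lost without library 1 (log2 fold changes -1.27 and -1.50), and their adjusted p ran up to 0.844 and 0.748 over the alternatives. Neighbours in the order of Oprk1 overlapped from the Six3 gate (46.3 CPM) down to the Tac2 gate, and only the Slc17a8 gate above and the Prkcd gate below stood clear of the next.

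Oprl1 was spread evenly by comparison. Gate means ran from 34.3 ± 18.0 CPM in the Prkcd gate to 98.7 ± 26.3 CPM in the Avp and Gal gate, and every pair of neighbours in the order overlapped. The Cck and Greb1 gate stood at 66.9, 91.3, 93.5 and 135 CPM against 48.8, 62.2, 49.1 and 68.0 CPM, higher in 4 of 4 libraries (log2 fold change 0.69, SE 0.21, edgeR adjusted p = 0.0239). The Ppp1r1b and Crym gate was lower in 4 of 4, at 37.4 ± 11.3 against a mean of 66.7 CPM (log2 fold change -0.88, SE 0.26, edgeR adjusted p = 0.00628). DESeq2 kept neither call, and the first was lost without library 3 (log2 fold change 0.65) or 4 (0.64), the second without library 1 (-0.82); over all alternatives the adjusted p ran to 0.949 and 0.849.

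Oprm1 and Oprd1 were too scarce to place. Oprm1 had 54 UMIs in 2303 GABAergic neurons, and its gate means ran from 2.59 ± 5.17 CPM in the Drd2 gate to 13.5 ± 17.6 CPM in the Drd1 gate. All ranges of neighbours overlapped, and edgeR called it in 0 of 14 gates (0 also at an unadjusted p under 0.05 and by DESeq2). Oprd1 had 21 UMIs, each in a cell of its own, of which 8 lay in the Six3 gate and 7 in the Sst and Npy gate. It had too few counts to be tested in any gate, and differences between gates were not detectable at this depth.

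Co-detection asked whether members share neurons. In each relation 1 gene split the neurons at their full depth, and the chance of showing the other gene was taken at 1000 UMIs. Because the split itself was not made at a fixed depth, the groups with and without the first gene can still differ in depth. There were 26 relations, computed over 4 libraries. Neurons with a Penk UMI held Pdyn in 4.05% ± 1.12 of cells and those without in 4.29% ± 0.777 (difference -0.24 ± 0.75 points, exact sign-flip permutation p = 0.625, adjusted 0.739). That difference was within the spread between libraries, and without library 1 its sign turned (0.0482 points). At 2000 UMIs, which leaves fewer and deeper cells, Pdyn was in 6.15% of neurons with Penk and 7.65% of those without, lower in 4 of 4 libraries (difference -1.49 ± 0.73 points, exact sign-flip permutation, adjusted p = 0.361). At that depth Penk was in 21.7% of neurons with Pdyn and 26.9% of those without, also lower in 4 of 4 libraries (-5.23 ± 1.71 points, exact sign-flip permutation, adjusted p = 0.361). Neurons with an Oprl1 UMI showed Penk less often, 17.5% ± 3.82 against 24.3% ± 2.30, in 4 of 4 libraries (two-sided exact sign-flip permutation test, adjusted p = 0.542). Its unadjusted p was the smallest that 4 libraries allow, which lies above the threshold of 0.05. In the reverse relation, neurons with Penk showed Oprl1 in 4.83% against 6.06% (-1.22 ± 1.46 points), and library 3 went the other way. With no fixed depth, library 3 also went the other way for Penk by Oprl1 (27.3% against 27.0%). Neurons with a Pdyn UMI held Oprk1 in 2.66% ± 2.17 and those without in 3.25% ± 0.622 (exact permutation p = 0.5, adjusted 0.722). That difference was -0.59 ± 1.80 points and positive in 2 of 4 libraries. As the test cannot pass 0.05 with 4 libraries, it cannot decide whether Pdyn and Oprk1 share neurons.

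The genes whose mean level over the 14 gates was most like each member's were named by rule, as a description. Since the gates share cells, the correlations carry no test. For Penk they were Hp1bp3 (r = 0.95) and Cacng4 (0.92), and for Pdyn Tet3 (0.86), Fam163b (0.84) and Tspyl3 (0.84). For Oprk1 they were Dzank1 (0.96), Cfdp1 (0.95) and Polr2b (0.94), the last a subunit gene of RNA polymerase II, each highest in the Slc17a8 gate. Their steps were smaller, as r does not measure size. In that gate they stood at 286, 520 and 112 CPM, beside gate averages of 217, 449 and 77.8 CPM. For Oprk1 these values were 129 and 35.7 CPM. For Oprl1 they were Kndc1 (0.95), Tmem215 (0.89) and Clstn2 (0.89). For the scarce Oprm1 they were Ext1 (0.82), Vmp1 (0.81) and Icmt (0.79), and for Oprd1 Myo9a (0.85), Dph7 (0.84) and Serpinb6a (0.80), among 7315 candidate genes in each case.

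The rest of the pathway was followed with a list of 34 genes for precursor processing, G proteins, their channels, cyclases and regulators. Between neurons and non-neuronal cells 25 rose in neurons, 4 fell and 5 did not pass, where 66.2% of all genes tested were called. The convertase genes Pcsk1 (log2 fold change 3.37, SE 0.60) and Pcsk2 (2.80, SE 0.21), which cut the precursors, and the potassium channel gene Kcnj9 (6.30, SE 0.55) were higher in neurons. The 4 lower genes were Cpe, which trims peptide ends (-0.51, SE 0.09), Gnai2, Gnai3 and Adrbk2 (also called Grk3). In the Ppp1r1b and Crym gate 5 of 34 were higher and 8 lower, where 18.1% of all genes tested were called. The higher ones were Adcy5, the main striatal adenylyl cyclase (1.76, SE 0.18), Rgs9 (1.49, SE 0.17), Rgs14 (2.31, SE 0.28), Rgs4 and Rgs20. The lower ones were Pcsk1 (-1.51, SE 0.56), Scg5 (-0.62, SE 0.10), Pcsk1n (-0.47, SE 0.07) and Cpe (-0.27, SE 0.09) of peptide processing, and Adcy1, Adcy8, Gng2 and Prkaca of signalling, while the convertase gene Pcsk2 did not pass (0.24, SE 0.16). In the Crh and Wif1 gate 2 of 34 were higher, with Pcsk1 at 1.88 (SE 0.31), and 4 lower (5.73% of all genes called). In the Slc17a8 gate 2 were higher, Gnai1 (0.36, SE 0.12) and Pcsk1n (0.47, SE 0.08), and Rgs9 was lower (-1.87, SE 0.42), with 3.91% of all genes called.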

How the data were processed

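The deposited tables hold raw UMI counts per gene and barcode, 1 table per library; the authors processed reads with bcl2fastq 2.18.0.12, STAR 2.4.2a and Picard 2.2.4 on mm10 or GRCm38, per the submitters' processing notes. The annotation and strand are not given in the sources used here. Barcodes with at least 400 genes and at most 10% mitochondrial UMIs passed (4239), and Scrublet (scanpy 1.11.5, expected rate 0.05) removed 58 doublets. A class gate needed 3 marker UMIs and 2 times those of every other class, a GABAergic neuron 1 UMI of Gad1, Gad2 or Slc32a1 and more than of glutamatergic markers, a subtype gate 2 marker UMIs, or 1 for the dopamine receptor gates. Gpr6 also counted for the Drd2 and Adora2a gate.

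Counts were summed per library and class (at least 10 cells) and compared by edgeR (version 4.0.16, R 4.3.3; TMM, quasi-likelihood F-test, library as block, at least 20 counts), p adjusted by Benjamini-Hochberg over all genes and called under 0.05. Same-numbered sums come from the same library, so pairing is by design. An SE is the fitted log2 difference divided by the root of its F value. Alternatives included DESeq2 1.42.0, other filters, gates and thinning. Robust dispersions, which let genes of unusual spread keep it, and cells in exactly 1 gate were added after the data were seen. Members, gates and lists were chosen with earlier results of these data known. The genes named are the 6 members, the pathway genes past the threshold, and for each member the 3 genes most like it by Pearson's r of mean log2(CPM + 1) over the gates, among genes with a mean of at least 20 CPM that mark no gate; 1 of these genes is not reported here. The code was tested on simulated data. Tables and plots used pandas 2.3.3, scipy 1.17.1 and matplotlib 3.10.9 under Python 3.11.15.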

Additional observations from a re-analysis of the deposited data

Results flagged for a closer look

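Among 56 sets of 4 library values with at least 20 UMIs, 3 held a library far from the other 3; chance alone gives about 1 in 20. All concerned Penk. In the Slc17a8 gate, library 1 stood at 1045 CPM and the others between 502 and 576. In the Tshz1 and Foxp2 gate, library 2 stood at 995 CPM and the others between 699 and 744. In the Avp and Gal gate, library 1 stood at 450 CPM and the others between 0 and 41.4, so that the mean of that gate rests on 1 library.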

How the results depend on the processing

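Of 32 calls with a fold change, 10 held under every alternative that could be run for them. For Penk in the Drd2 and Lhx8 gates and Pdyn in the Drd1 gate, these did not include cells in exactly 1 gate. Over all alternatives run, 401 values kept direction and call, 74 kept direction only and 2 reversed. The reversals were Penk in the Drd1 gate without library 4 (0.14, in a range of -0.88 to 0.14 with a library left out) and in the Tac2 gate with cells in exactly 1 gate (0.53). For neurons against non-neuronal cells 4 to 6 members were called throughout. For the transmitter classes, the 2 calls became 0 in DESeq2 (1 at an unadjusted p under 0.05) and 1 with robust dispersions or thinning, and 1 to 2 with a library left out. For the Drd2 against the Drd1 gate, the 2 calls became 0 in DESeq2 (2 at an unadjusted p under 0.05) and 1 with robust dispersions or thinning. Across gates, the 3 calls became 1 in DESeq2 and with thinning, and 1 to 3 with a library left out. The 25 calls in single gates became 13 in DESeq2 and 15 with thinning. They became 16 with gates needing 1 more UMI and 8 with cells in exactly 1 gate. In the last 2 settings fewer cells entered, and some gates had too few libraries with 10 cells to be compared. With cells in exactly 1 gate these included the Drd2, Drd1, Lhx8, Slc17a8 and Avp gates, whose calls were untested there rather than lost. The causes were not tested further. Without the replicate block, which pairs sums of the same library, 16 of the 25 and 1 of the 2 transmitter calls held. In co-detection, the Pdyn difference by Penk ran from -0.55 to 0.0482 points with a library left out, and that of Oprk1 by Pdyn became 0.23 points with no fixed depth. Depth limits Oprm1 and Oprd1, seen by 54 and 21 UMIs in GABAergic neurons.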

Other observations

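The 130 neurons of neither transmitter gate, with a median of 778 UMIs, held Penk at 670 ± 152 CPM (SD, n = 4 libraries), Pdyn at 19.3 ± 27.4 CPM and Oprl1 at 56.0 ± 21.8 CPM. The 807 GABAergic neurons in no subtype gate, with a median of 1974 UMIs, held Penk at 688 ± 237 CPM, Pdyn at 29.5 ± 11.4 CPM and Oprk1 at 40.4 ± 13.9 CPM. The 81 cells that no class gate took held 10 Penk UMIs and 5 Oprl1 UMIs. In the 27 mural-gated cells 2 Penk UMIs were found, and in the 49 endothelial, 10 microglial and 7 fibroblast cells 0 UMIs of any of the 6 genes.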
